A study of Mus musculus with 8 samples.

Results

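The stretch of mouse chromosome 7 that runs from Klk14 to Klk6 holds 9 kallikrein-related protease genes and, between Klk13 and Klk12, the long non-coding RNA gene 2310002F09Rik on the opposite strand. In the luminal epithelium of the mammary gland, 6 of these 10 genes were read at higher levels in the c-Kit high fraction, which contains the luminal progenitors (LP), than in the c-Kit low fraction of mature luminal cells. This count includes 2 genes picked for that difference, and Klk14, Klk10 and Klk11 passed a filter on low counts only with their LP counts. Over all 12816 genes that passed this filter and were tested, 10.9% were called higher in LP. The 6 of 10 cannot be set against that share. Klk7 had no count in any library, and Klk12, Klk9 and Klk6 had so few counts that the filter removed them. Klk13 and 2310002F09Rik were picked for their difference between LP and mature libraries, so their values are given below as a description with no test. The other 8 genes were chosen by their position beside this pair, and all 10 were found among the 24594 genes of the count table by their Entrez Gene ID.

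RNA came from luminal cells of adult wild type C57BL/6J mice that received no specific treatment, and 4 LP libraries were compared with 4 mature libraries. The study describes the fractions as separated by flow cytometry on c-Kit, the labels also list EpCAM, CD49f and CD14 as markers of the sort, and TER-119, CD31 and CD45 were stained to mark blood and endothelial cells. The cDNA was amplified from a sub-nanogram amount of RNA before library preparation, so a low count can hold few original molecules. The sample descriptions carry 4 different numbers, each shared by 1 LP and 1 mature library, and the study calls its RNA-seq replicates biological. The labels do not say that a number is a mouse, so p-values measure the spread between these libraries, which may in part be technical. Library totals ranged from 5510863 to 7089597 counts on genes in LP and from 4410049 to 7791593 in mature cells. Of 5 LP markers, 4 were higher in LP, with Aldh1a3 at an adjusted p of 0.0512 in edgeR's quasi-likelihood test, and all 6 mature luminal markers were higher in mature cells. Kit, which encodes the marker that separated the fractions, and Cd14, which the labels list for the sort, are among the LP markers.

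Kallikreins are secreted serine proteases that are made as inactive precursors and are switched on when a short leader peptide is cut off, often by another kallikrein, so that several of them can act in a cascade. Their genes lie side by side in a single large group in humans and mice and are read mostly in glands and in stratified epithelia such as the skin, where Klk5, Klk7 and Klk14 cut the junction proteins that hold the outermost cells together. Spink5, the inhibitor that is defective in Netherton syndrome, keeps these enzymes in check. In humans KLK10 was first described under the name NES1, for normal epithelial cell-specific 1, from mammary epithelial cells.

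In RefSeq on GRCm38.p6 the 10 genes lie on chr7:43680880-43832027, a span of 151.1 kb, and no other gene of the count table lies between them. All 9 protease genes are on the forward strand and 2310002F09Rik is on the reverse strand. In chromosomal order the genes are Klk14 (chr7:43680880-43695536), Klk13 (chr7:43712567-43727864), 2310002F09Rik (chr7:43745466-43755936), Klk12 (chr7:43768891-43773581), Klk11 (chr7:43774617-43779263), Klk10 (chr7:43781054-43785410), Klk9 (chr7:43791625-43796758), Klk8 (chr7:43797532-43803826), Klk7 (chr7:43811294-43816387) and Klk6 (chr7:43824438-43832027). The gaps between neighbours range from 0.773 kb, between Klk9 and Klk8, to 17.6 kb, between Klk13 and 2310002F09Rik. GENCODE M21 adds a longer transcript of 2310002F09Rik with 7 exons, which spans 102737 bases (chr7:43695209-43797945) and so reaches from the last exon of Klk14 to the first exon of Klk8. With all GENCODE transcripts counted, 2310002F09Rik shares 287 of the 1271 exon bases of Klk14 and 382 of the 1540 exon bases of Klk8 on the opposite strand, and no exon base of any other of the 9 protease genes. The GENCODE transcript linked to its RefSeq entry, with 2468 exon bases at chr7:43745466-43748793, shares none. This transcript is shorter than the RefSeq span of the gene, which ends at chr7:43755936 and overlaps none of the 9 protease genes. The counting program, its annotation and its strand setting are not given in the sources used here, so reads of Klk14 or Klk8 and reads of the antisense transcript cannot be told apart in these shared bases.

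The promoters of 5 genes are printed because they cover the range of levels found: Klk10 and 2310002F09Rik were highest in LP, Klk13 and Klk14 were read in LP with at most a few counts in mature cells, and Klk7 was silent. Each sequence holds the 250 bases before a transcript start in a table of RefSeq promoters on GRCm38.p6, 5′ to 3′ on the strand of the gene, and capitals mark a match to one of 4 motifs. The Klk14 window lies inside the RefSeq span of the gene, before the start at chr7:43690418 that GENCODE also gives, and the outer RefSeq end of Klk14 has no window here. The 2310002F09Rik window lies before the RefSeq start at chr7:43755936, whereas the GENCODE transcript linked to RefSeq starts at chr7:43748793.
Klk10, forward strand, chr7:43780804-43781053: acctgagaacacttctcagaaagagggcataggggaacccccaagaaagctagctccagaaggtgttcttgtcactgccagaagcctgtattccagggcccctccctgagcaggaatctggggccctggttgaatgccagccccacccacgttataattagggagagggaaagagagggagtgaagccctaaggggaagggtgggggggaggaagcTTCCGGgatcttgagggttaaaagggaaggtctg
2310002F09Rik, reverse strand, chr7:43755937-43756186: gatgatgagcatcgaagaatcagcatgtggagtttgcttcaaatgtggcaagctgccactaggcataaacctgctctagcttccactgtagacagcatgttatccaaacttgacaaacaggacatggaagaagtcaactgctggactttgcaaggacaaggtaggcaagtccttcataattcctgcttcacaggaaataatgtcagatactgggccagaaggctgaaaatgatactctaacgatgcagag
Klk13, forward strand, chr7:43712317-43712566: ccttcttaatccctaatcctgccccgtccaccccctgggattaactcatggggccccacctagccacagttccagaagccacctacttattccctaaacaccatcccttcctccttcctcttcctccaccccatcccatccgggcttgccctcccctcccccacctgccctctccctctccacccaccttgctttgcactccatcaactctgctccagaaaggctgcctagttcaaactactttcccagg
Klk14, forward strand, chr7:43690168-43690417: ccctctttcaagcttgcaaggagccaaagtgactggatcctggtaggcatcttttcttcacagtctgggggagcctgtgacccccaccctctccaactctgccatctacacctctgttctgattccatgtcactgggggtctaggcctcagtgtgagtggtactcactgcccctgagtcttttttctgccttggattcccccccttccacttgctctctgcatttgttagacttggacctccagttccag
Klk7, forward strand, chr7:43811044-43811293: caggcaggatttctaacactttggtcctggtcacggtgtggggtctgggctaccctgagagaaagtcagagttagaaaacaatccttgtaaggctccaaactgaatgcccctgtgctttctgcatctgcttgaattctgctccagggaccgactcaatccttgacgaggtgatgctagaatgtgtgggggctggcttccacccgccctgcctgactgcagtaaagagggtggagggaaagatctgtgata

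The motifs were searched on both strands, and no motif holds another within it. The capitals in Klk10 are an ETS-type match, CCGGAA read on the other strand, which begins 34 bases before the start, and the other 4 printed windows hold no match. In the windows of all 10 genes, 12 in total since Klk11 and Klk6 have a pair of starts each, CCGGAA was also found in a Klk6 window. The GATA-type letters AGATAA were found only in the Klk12 window. Several windows that are not printed also lie partly or wholly inside the RefSeq span of their gene, and the match in the Klk12 window lies inside that span. The TATA-box letters TATAAA and the AP-1 letters TGACTCA were found in none of the 12. Over 32851 RefSeq promoter windows of the same length, 12.0% held CCGGAA, 10% AGATAA, 12.4% TATAAA and 4.5% TGACTCA. The GC content of the printed windows was 56.0% in Klk10, 44.8% in 2310002F09Rik, 57.6% in Klk13, 53.6% in Klk14 and 52.4% in Klk7.

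**Figure D1:**
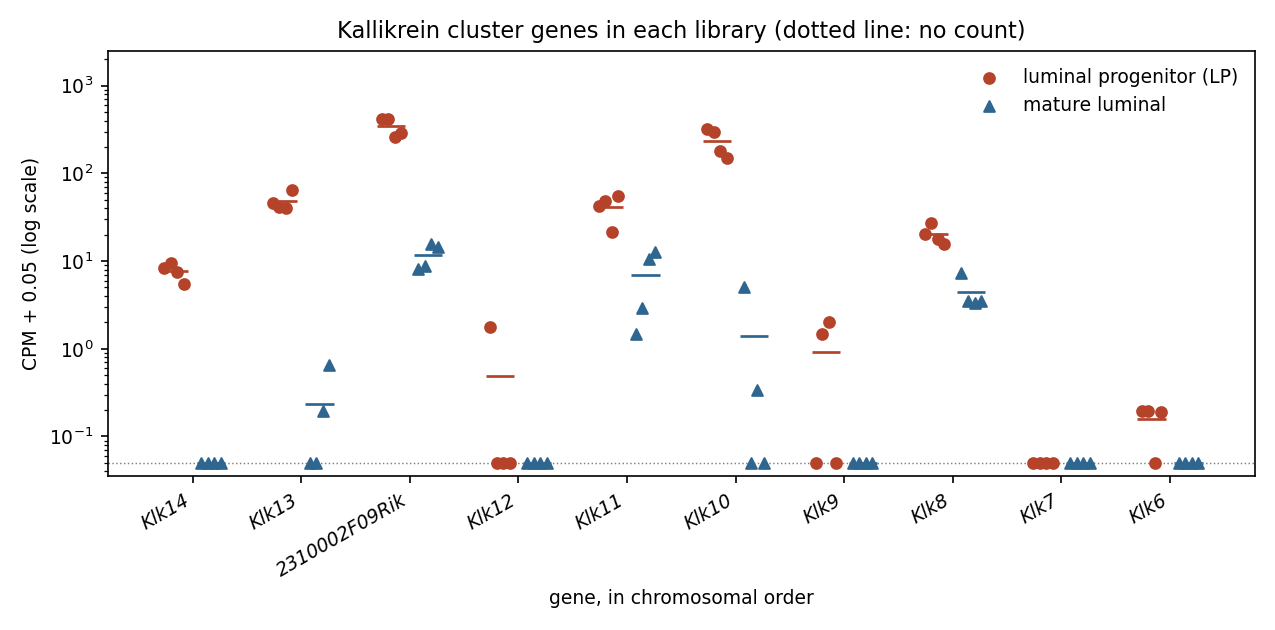
CPM of each of the 10 genes in every library, plotted as CPM + 0.05 on a log axis in chromosomal order. Circles are the 4 LP libraries, triangles the 4 mature libraries, short lines the means, and points on the dotted line had no count. The circles lie above all triangles for Klk14, Klk13, 2310002F09Rik, Klk11, Klk10 and Klk8, and Klk7 lies on the dotted line throughout.

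Levels below are in CPM, the counts scaled to a common library size with TMM factors. Klk10, a secreted protease of the normal breast and other epithelia, was the most abundant of the genes taken by position. Its 4 LP libraries held 2183, 2056, 1092 and 1075 counts, which are 317, 295.6, 181.3 and 149.1 CPM, and its mature libraries held 36, 0, 2 and 0 counts, which are 5.06, 0, 0.289 and 0 CPM. The lowest LP library thus stood far above the highest mature library, and LP replicates 1 and 2 were above replicates 3 and 4. Mean levels were 235.7 ± 83.0 CPM in LP and 1.34 ± 2.49 CPM in mature cells (SD, n = 4 each), a 176.2-fold ratio. The fitted log2 fold change was 7.29 (SE 0.849, adjusted p = 0.000449 in edgeR's quasi-likelihood test). Mature replicate 1 held 36 of the 38 mature counts, and without that library the log2 fold change was 10.79.

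Klk14, a trypsin-like kallikrein that can activate the receptor PAR2, was read in LP only at a low level. It had 57, 66, 45 and 39 counts in the LP libraries, which are 8.28, 9.49, 7.47 and 5.41 CPM, and no count in any mature library. The fractions did not overlap. The LP mean was 7.66 ± 1.71 CPM (SD, n = 4). No count in 4 mature libraries allows up to 0.123 CPM, as 3 counts over the 4 libraries. The pooled LP level was 62.4-fold above this limit, which covers counting error only and not the spread between libraries. The fitted log2 fold change, 8.63 (SE 0.924, adjusted p = 0.000859 in edgeR's quasi-likelihood test), depends on the prior count that stands in for the zeros and is no bound. Of the 51-base stretches of the Klk14 exons, 20.9% also occur in 2310002F09Rik or in other genes, Slc17a9 and Pou2f2 among them. The mature libraries held 294 counts of 2310002F09Rik and 0 of Klk14.

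Klk11 and Klk8 were read in every mature library, and their fitted differences were smaller than those of Klk10 and Klk14, a contrast between genes that was not tested. Klk11, a trypsin-like kallikrein also called hippostasin, had 290, 337, 130 and 396 counts in LP (42.1, 48.5, 21.6 and 54.9 CPM) and 10, 11, 72 and 83 counts in mature cells (1.41, 2.89, 10.4 and 12.5 CPM). LP replicate 3 was the lowest of its fraction, mature replicates 3 and 4 were the highest of theirs, and the fractions did not overlap. The means were 41.8 ± 14.4 and 6.80 ± 5.47 CPM (SD, n = 4 each), 6.14-fold apart, and the log2 fold change was 2.60 (SE 0.591, adjusted p = 0.00971 in edgeR's quasi-likelihood test). Without both libraries numbered 2, the adjusted p of Klk11 was 0.0645.

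Klk8, known as neuropsin for its part in synaptic plasticity and also active in skin, had 138, 189, 107 and 113 counts in LP (20.04, 27.2, 17.8 and 15.7 CPM). In mature cells it had 52, 13, 23 and 23 counts (7.31, 3.42, 3.32 and 3.47 CPM). Mature replicate 1 was the highest of its fraction but lay below every LP library. The means were 20.2 ± 5.0 and 4.38 ± 1.96 CPM (SD, n = 4 each), 4.61-fold apart, and the log2 fold change was 2.19 (SE 0.384, adjusted p = 0.00276 in edgeR's quasi-likelihood test). Of the 51-base stretches of Klk8, 21.6% also occur in the GENCODE exons of 2310002F09Rik, and the counts cannot be divided between the strands.

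Each of these 4 genes was thus higher in LP, whereas over all 12816 genes tested 24.7% passed the threshold of an adjusted p of 0.05 and 10.9% passed it with the higher level in LP. All LP libraries lay above all mature libraries in each of the 4, and so they did in 14.0% of the genes tested. The 4 had passed the filter on low counts. Klk14 and Klk10 could pass it only through their LP counts, and Klk11, with 10 counts in mature replicate 1, needed LP counts too. The number called among the 4 therefore says nothing about the 8 genes taken by position. In an exact permutation test of the mean CPM over the 8 libraries, two-sided, each of the 4 gave p = 0.0286, also after adjustment over the 4 tests. This is the smallest p that 4 libraries against 4 allow, and it restates that the libraries did not overlap. The genes removed by the filter or without counts are left out of the adjustment, so the same limit holds and these p-values add no support.

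**Figure D2:**
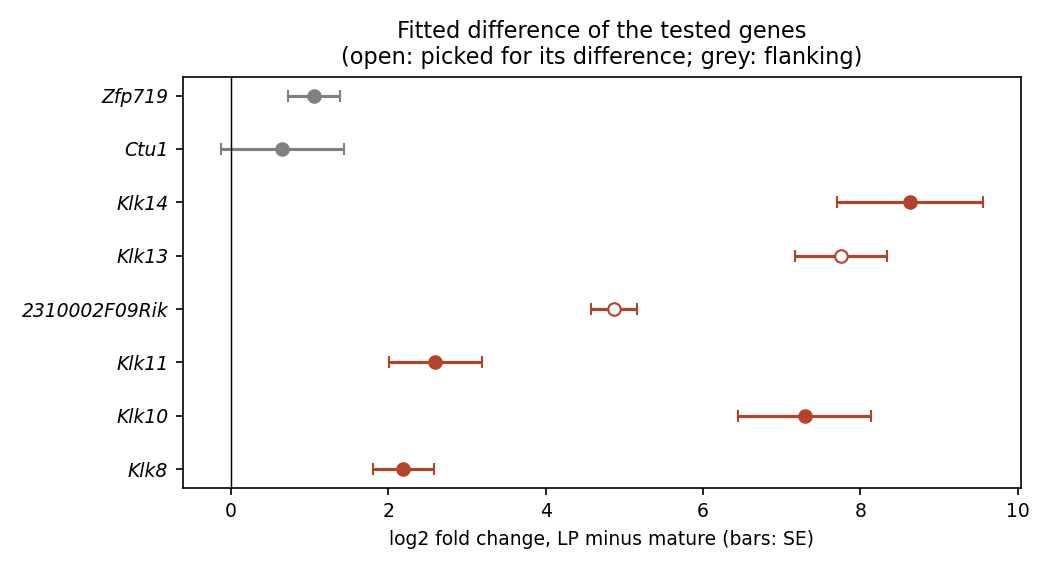
Fitted log2 fold change, LP minus mature, of the 6 tested genes of the cluster and of the 2 tested genes among the 10 nearest on its left side (grey), with bars of 1 SE. Open circles are Klk13 and 2310002F09Rik, which were picked for this difference. Klk14, Klk13 and Klk10 lie above 7, and Klk11 and Klk8 lie between 2 and 3.

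The genes picked for their difference were the following. Klk13, a trypsin-like kallikrein that can cleave extracellular matrix proteins, had 313, 284, 244 and 469 counts in LP (45.5, 40.8, 40.5 and 65.1 CPM) and 0, 0, 1 and 4 counts in mature cells (0, 0, 0.144 and 0.603 CPM). LP replicate 4 was the highest of its fraction, and mature replicate 4 held 4 of the 5 mature counts. The means were 48.0 ± 11.6 CPM in LP and 0.187 ± 0.286 CPM in mature cells (SD, n = 4 each), and the log2 fold change was 7.75 (SE 0.589), or 9.34 without mature replicate 4. No 51-base stretch of its exons occurs in another gene.

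2310002F09Rik, the non-coding RNA on the reverse strand, was the most abundant of the 10 genes by counts. It had 2879, 2871, 1555 and 2054 counts in LP (418.0, 412.7, 258.2 and 285.0 CPM) and 58, 33, 107 and 96 counts in mature cells (8.16, 8.67, 15.45 and 14.46 CPM). LP replicates 1 and 2 were above replicates 3 and 4, as for Klk10, while in mature cells replicates 3 and 4 were above 1 and 2. The means were 343.5 ± 83.8 and 11.7 ± 3.81 CPM (SD, n = 4 each), 29.4-fold apart, and the log2 fold change was 4.86 (SE 0.292). By LP mean CPM it stood at rank 351 and Klk10 at rank 606 among the 24594 genes. The study placed 2310002F09Rik and Klk10 in its own LP gene set, which it chose on these libraries, so that set is not independent evidence of their direction.

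Of the genes with few or no counts, Klk12 and Klk9 lay between genes that were read. Klk7 and Klk6 lay side by side at the right end of the cluster. Klk12, a trypsin-like kallikrein, had 12 counts in LP replicate 1 (1.74 CPM) and none in the other 7 libraries. Klk9, a kallikrein of less studied function, had 10 counts in LP replicate 2 (1.44 CPM), 12 in LP replicate 3 (1.99 CPM) and none in the other 6. For both genes the reads thus came in a few libraries while other libraries of the same fraction and like depth held none. Klk6, or neurosin, a protease of the nervous system, had 1 count each in LP replicates 1, 2 and 4 and none elsewhere, and both fractions were at or under the level of 3 counts.

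Klk7, a chymotrypsin-like enzyme that cleaves corneodesmosin in the outer layer of the skin, had 0 of 51484087 counts over the 8 libraries, which allows up to 0.0582 CPM. This limit covers counting error only and was 0.111 CPM in LP and 0.123 CPM in mature cells. The LP mean of Klk8, whose gene ends 7.467 kb before Klk7, was 20.2 CPM. When genes with any count were tested with no filter, Klk12, Klk9 and Klk6 had adjusted p of 0.199, 0.111 and 0.218 in edgeR's quasi-likelihood test. No difference between LP and mature cells was therefore called for these 3 genes, whose few counts came in only some of the LP libraries. This does not show that their levels are equal.

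**Figure D3:**
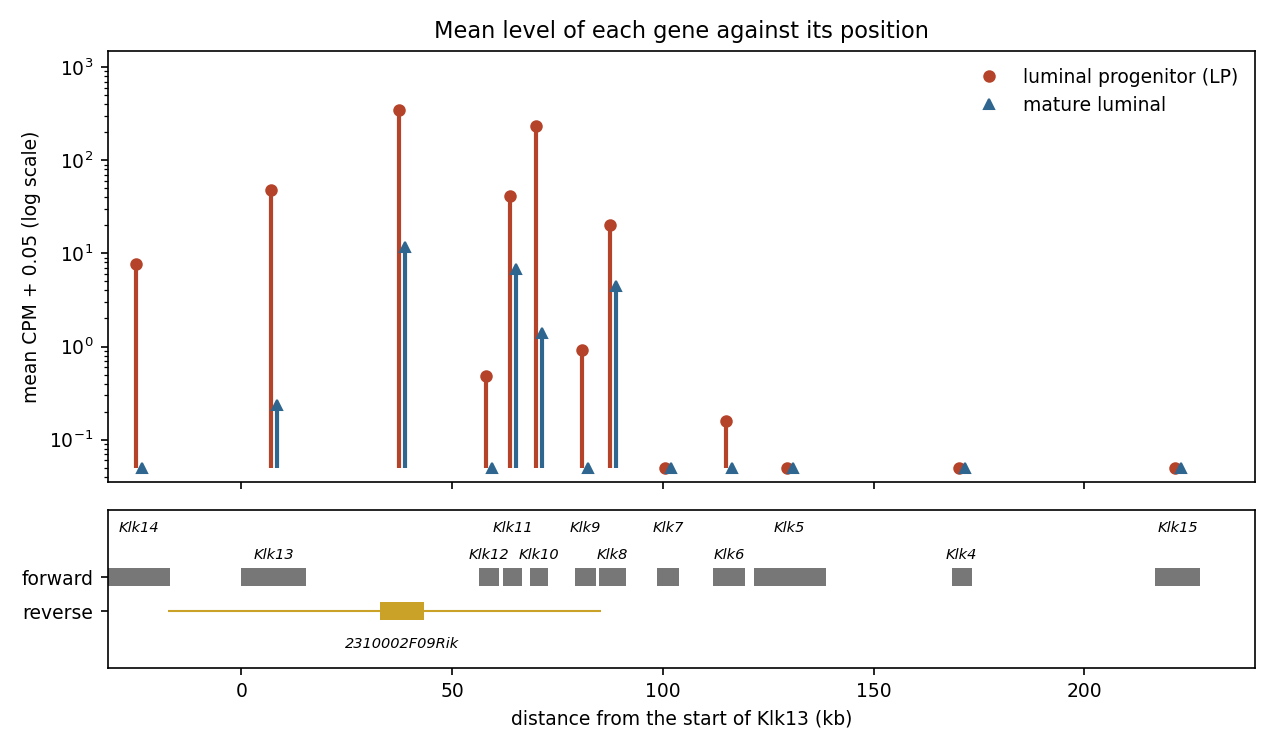
Mean CPM + 0.05 on a log axis in LP (circles) and mature cells (triangles) against the distance from the start of Klk13 in kb, with gene bodies by strand below and the long GENCODE transcript of 2310002F09Rik as a thin line. Klk12 and Klk9 are low between genes with LP means of 41.8 to 343.5 CPM and 20.2 to 235.7 CPM, and from Klk7 to Klk15 no gene exceeds 0.107 CPM.

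The silence went on past the right end of the cluster. Klk5, which activates other kallikreins in the skin, starts 2.13 kb beyond Klk6 and had no count in any library. Klk4, a protease of enamel formation, and Klk15 had none either. Among the 10 nearest genes of the count table on the right, 6 had no count. The other 4, all of the Klk1b subfamily, had between 2 and 15 counts over the 8 libraries, too few to be tested. On the left side, 4 of the 10 nearest genes had no count, 4 were removed by the filter and 2 were tested. Ctu1, an enzyme of tRNA thiolation that lies 2.58 kb from Klk14, had means of 9.77 ± 5.92 CPM in LP and 6.12 ± 5.42 CPM in mature cells (SD, n = 4 each) and a log2 fold change of 0.65 (SE 0.781, adjusted p = 0.585 in edgeR's quasi-likelihood test). Zfp719, a zinc finger gene 87.2 kb away, had 23.2 ± 7.91 and 11.1 ± 2.66 CPM (SD, n = 4 each). Its log2 fold change was 1.055 (SE 0.331, adjusted p = 0.0394 in edgeR's quasi-likelihood test), and the adjusted p was above 0.05 in 10 of 19 alternatives, up to 0.208.

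Levels can be compared between genes only per length, here as CPM per kb of the exons of GENCODE transcripts linked to RefSeq. For 2310002F09Rik the linked transcript spans 3328 bases and the RefSeq gene 10471, so its level per kb depends on the transcript used. In LP, Klk10 had 171.7 ± 60.4 and 2310002F09Rik 139.2 ± 33.9 CPM per kb (SD, n = 4 each), and their ranges over the libraries overlapped. Klk11 followed with 28.6 ± 9.87 and Klk13 with 26.5 ± 6.43 CPM per kb, whose ranges overlapped too. Klk8 with 15.3 ± 3.78 CPM per kb lay below the range of Klk13, and Klk14 with 6.03 ± 1.35 CPM per kb below Klk8. Klk9, Klk12, Klk6 and Klk7 had 0.581, 0.471, 0.0709 and 0 CPM per kb, each with a range that reached 0. With the longer exon set of all GENCODE transcripts, 2310002F09Rik had 76.5 CPM per kb in LP. In mature cells the order was 2310002F09Rik with 4.73 ± 1.54, Klk11 with 4.65 ± 3.74, Klk8 with 3.31 ± 1.48, Klk10 with 0.974 ± 1.81 and Klk13 with 0.103 ± 0.158 CPM per kb (SD, n = 4 each), and each of these overlapped with the next.

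The make-up of the counts of the 4 tested genes taken by position therefore differed between the fractions. Of the summed counts of Klk14, Klk11, Klk10 and Klk8, Klk10 made up 81.8%, 77.6%, 79.5% and 66.2% in the LP libraries and 36.7%, 0%, 2.06% and 0% in the mature libraries. Klk8 made up 5.17% to 7.79% in LP and 21.7% to 54.2% in mature cells, and Klk11 9.46% to 24.4% in LP and 10.2% to 78.3% in mature cells. The shares of Klk10 and Klk8 did not overlap between the fractions, while those of Klk11 did. The mature shares rest on 98, 24, 97 and 106 counts in replicates 1 to 4. Shares of a sum depend on each other, so these follow from the levels above and are no separate result. They were looked at after the levels were known and carry no test.

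In bulk RNA, fewer cells of a type and less RNA per cell cannot be told apart, so a low level in the mature fraction can lie in a few cells or in all of them. As a percent of the LP mean, the mature mean was 0% for Klk14, 0.389% for Klk13, 0.567% for Klk10, 3.40% for 2310002F09Rik, 16.3% for Klk11 and 21.7% for Klk8. The LP markers left 1.32% for Cd14, 5.83% for Csn3, 12.8% for Kit, 24.6% for Elf5 and 38.7% for Aldh1a3. Their summed level was 16170 to 26260 CPM in the LP libraries and 342.6 to 1639 CPM in the mature libraries, lowest in mature replicate 1. Klk13, 2310002F09Rik and Klk11 were higher in mature replicates 3 and 4 than in 1 and 2, and so were Cd14, Csn3, Kit, Elf5 and Aldh1a3. Klk10 and Klk8 were highest in mature replicate 1, where the marker sum was lowest. What part LP cells in the mature fraction had in these residual levels was not tested.

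**Figure D4:**
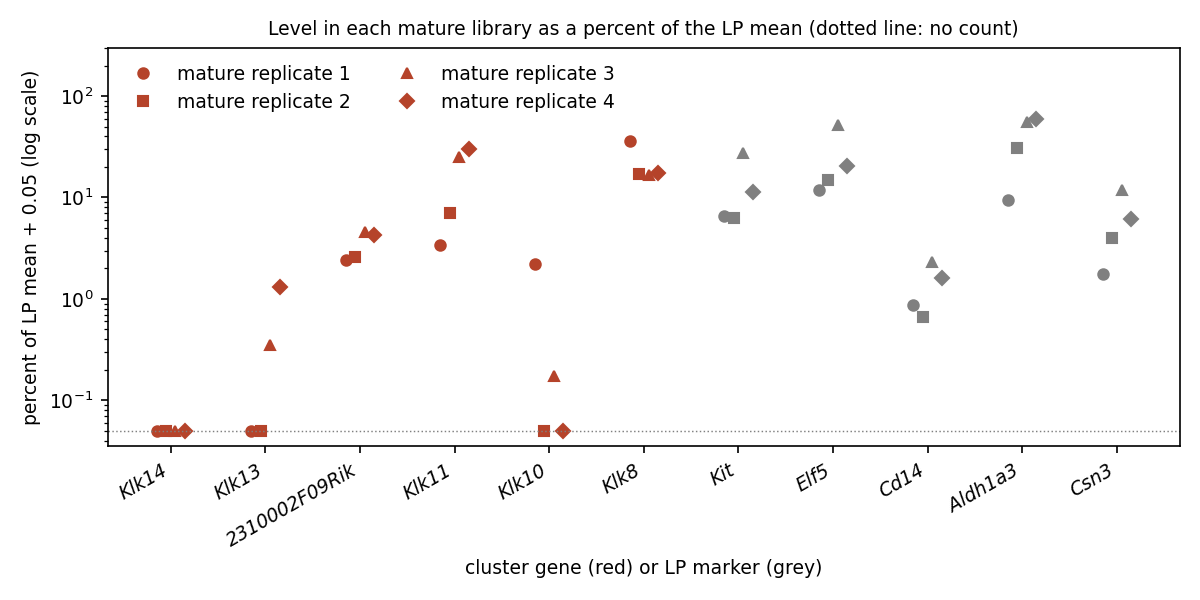
Level in each of the 4 mature libraries as a percent of the LP mean, plus 0.05, on a log axis, for the 6 tested genes of the cluster (red) and 5 LP markers (grey). Symbols stand for mature replicates 1 to 4, and points on the dotted line had no count. Klk10 and Klk8 are highest in replicate 1, with 2.15% and 36.3%, and Klk11 in replicate 4, with 29.9%.

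Since several kallikreins are known from skin, markers of epidermal keratinocytes were examined beside them. Of 8 such markers in the table, Ivl and Dsg1a had no count, and Lor had none in LP. Krt1 had 0.362 ± 0.550 CPM in LP and 1.17 ± 1.80 CPM in mature cells (SD, n = 4 each). Sbsn, a suprabasal protein, was higher in LP, with 94.5 ± 51 against 25.8 ± 14.9 CPM (SD, n = 4 each) and a log2 fold change of 1.86 (SE 0.454, adjusted p = 0.0133 in edgeR's quasi-likelihood test), and Krt10 had a log2 fold change of -0.49 (SE 0.523, adjusted p = 0.537 in the same test). The summed level of the list, most of it Sbsn, was 70.7 to 173 CPM in LP and 31.4 to 53.4 CPM in mature cells. Basal markers summed to 3.33 to 17.1 CPM in LP and 6.30 to 45.8 CPM in mature cells, immune markers to 0.332 to 1.25 and 0.144 to 1.96 CPM, endothelial markers to 3.05 to 8.48 and 0.984 to 8.08 CPM, and stromal markers to 5.83 to 11.8 and 0.151 to 16.3 CPM. Cd3e had no count.

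None of 17 other mouse kallikrein genes listed could be tested, since 12 had no count and 5 had 1 to 15 counts over all libraries. With no filter, Klk1b11 passed the threshold, with 3, 2, 5 and 5 counts in LP and none in mature cells (adjusted p = 0.0381 in edgeR's quasi-likelihood test). The Klk1b genes are close paralogs, and 12.4% of the 51-base stretches of Klk1b11 occur in other genes, so reads from these stretches cannot be assigned to a single gene.

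Partners of the kallikreins were read from lists of inhibitors, receptors and substrates, and other serine proteases of epithelia. Among 8 inhibitors, 2 had no count, 3 were removed by the filter and 3 were tested, with a median log2 fold change of 0.016 against -2.8e-05 over all genes tested. Slpi, a secreted inhibitor of leukocyte and other serine proteases, was higher in LP, with 690.6 ± 150.4 against 74.1 ± 36.9 CPM (SD, n = 4 each), with a log2 fold change of 3.22 (SE 0.400, adjusted p = 0.000573 in edgeR's quasi-likelihood test). Spint1 and Spint2, membrane-bound Kunitz inhibitors, had log2 fold changes of -0.29 (SE 0.193) and 0.016 (SE 0.172), with adjusted p of 0.303 and 0.961 in the same test. Spink5, the skin inhibitor of kallikreins, had 0.939 ± 0.767 CPM in LP and 2.38 ± 4.76 CPM in mature cells (SD, n = 4 each) and was removed by the filter.

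Of 12 receptors and substrates, 1 had no count, 7 were removed by the filter and 4 were tested, with a median log2 fold change of -0.26. Nrg1, an ErbB ligand that KLK8 can cleave, was lower in LP, with 16.3 ± 1.95 against 36.7 ± 8.93 CPM (SD, n = 4 each) and a log2 fold change of -1.17 (SE 0.249, adjusted p = 0.00697 in edgeR's quasi-likelihood test, and 0.0520 without both libraries numbered 2). F2rl1, which encodes PAR2, had 50.9 ± 4.79 and 40.2 ± 15.9 CPM and a log2 fold change of 0.33 (SE 0.274, adjusted p = 0.410 in the same test). Cdsn and Fn1, which encode corneodesmosin and fibronectin, had log2 fold changes of -0.14 (SE 0.795) and -0.40 (SE 0.878), with adjusted p of 0.922 and 0.780 in that test.

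Of 9 other epithelial serine proteases, 8 were tested, 2 were lower in LP and 6 did not pass, with a median log2 fold change of -0.94. A share of 2 in 8 is near the 24.7% called over all genes tested, and the counts in all 3 lists are too small to set against it. Prss23, a secreted serine protease, had 6.84 ± 4.86 CPM in LP and 76.8 ± 37.3 CPM in mature cells (SD, n = 4 each), a log2 fold change of -3.48 (SE 0.524, adjusted p = 0.00128 in edgeR's quasi-likelihood test). Tmprss2, a membrane-anchored serine protease, had 55.4 ± 22.1 and 180.8 ± 73.3 CPM (SD, n = 4 each), a log2 fold change of -1.71 (SE 0.372, adjusted p = 0.00791 in the same test). Its adjusted p was 0.0550 without both libraries numbered 2 and 0.0567 without both numbered 4. St14 and Prss8, which encode matriptase and prostasin, had log2 fold changes of -0.039 (SE 0.176) and -0.12 (SE 0.218), and Tmprss13 had 0.034 (SE 0.170). Hpn, Prss22 and Tmprss4 had -0.44 (SE 0.414), -1.44 (SE 0.770) and -2.36 (SE 0.957), with adjusted p of 0.480, 0.201 and 0.0974 in that test.

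**Figure D5:**
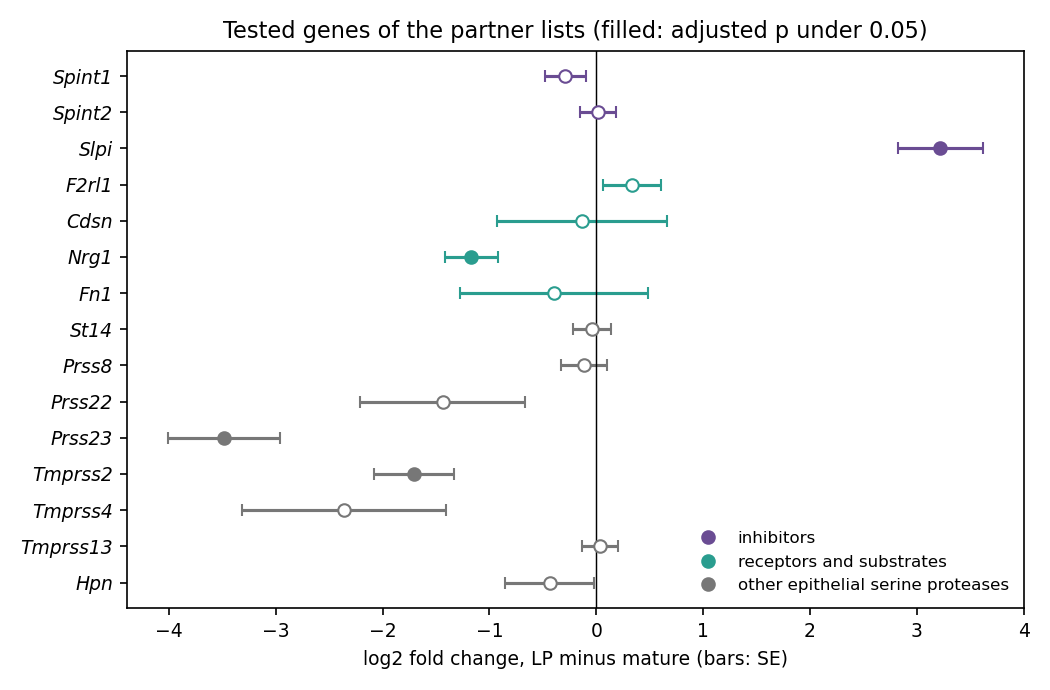
Fitted log2 fold change, LP minus mature, of the 15 tested genes of the partner lists, with bars of 1 SE and colours by list. Filled circles passed an adjusted p of 0.05: Slpi lies at 3.22, and Nrg1, Tmprss2 and Prss23 lie at -1.17, -1.71 and -3.48.

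The genes whose profile over the 8 libraries was most like that of a cluster gene were found by the mean absolute difference of their log2 CPM, computed with a prior count of 2, after centring each gene. For genes at or near 0 in mature cells this prior count sets the mature part of the profile, so their distances say little about likeness. For 2310002F09Rik the nearest genes were Ubash3b (difference 0.320), Klk14 (0.321), Psapl1 (0.326), Mybph (0.341) and Xdh (0.371). Klk14, Psapl1 and Mybph had no count in mature cells and Ubash3b had a mature mean of 0.0738 CPM, so that Xdh, the gene of xanthine dehydrogenase, is the one of the 5 that was read well in both fractions, with 497.5 CPM in LP and 21.0 CPM in mature cells. Klk13 and Klk10 have mature libraries at 0 themselves, and the same limit holds for their nearest genes. For Klk13 these were Cd14 (0.325), Ubash3b (0.643), Ptafr (0.713), Adora1 (0.748) and Psapl1 (0.770), and for Klk10 they were Klk13 (1.48), Cd14 (1.54), Gm11747 (1.54), Them5 (1.55) and Ptafr (1.75). The profiles share libraries and depth, and since they span a comparison in which Klk13 and 2310002F09Rik were picked, these distances are a description.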

How the data were processed

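RNA-seq of 4 LP and 4 mature luminal libraries was used. The authors deposited raw counts per gene, as whole numbers for 24594 Entrez Gene IDs and without normalization. Per the submitters' processing notes, reads were trimmed with cutadapt 4.2 and aligned to mm10 with Bowtie2 2.3.5.1. Reads were 51 bases long. RefSeq (GRCm38.p6) gave symbols and positions for 24570 IDs, and GENCODE M21 gave exons. Counts were scaled by TMM, filtered with filterByExpr by fraction, which left 12816 genes, and tested with edgeR 4.0.16 (R 4.3.3) by the quasi-likelihood F-test, with p-values adjusted by Benjamini-Hochberg over the 12816. The common biological coefficient of variation was 0.393. SE is the absolute log2 fold change divided by the square root of F. A count of 0 was given an upper limit of 3 counts, which covers counting error only. Named genes were all members, every flanking gene with a count that a statement rests on, list genes that were called or that a count rests on, and the 5 most alike genes. The members and lists were chosen with earlier results of these data known.

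Alternatives were RLE factors, DESeq2 1.42.0, edgeR's likelihood ratio test, a stricter filter (10 or more counts in each of the 8 libraries) or none, blocking on the replicate number, thinning to the depth of the smallest library, and dropping each library or each same-numbered pair. The study's methods give 3 biological replicates per condition, and 4 libraries per fraction are analysed here.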

Additional observations from a re-analysis of the deposited data

Results flagged for a closer look

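Of 14 groups of 4 libraries with a count of one of the 10 genes, 4 held a library far from the others. The measure was the gap to its nearest neighbour over the range of the group. Its limit flags about 1 in 20 groups of normally distributed values. That rate does not hold for tied or near-zero counts, as in Klk12 and Klk6, so the 4 groups cannot be set against it. Klk12 had 1.74 CPM in LP replicate 1 and 0 in the other LP libraries. Klk10 had 5.06 CPM in mature replicate 1, against at most 0.289 CPM in the other mature libraries. Klk8 had 7.31 CPM in mature replicate 1, against 3.32 to 3.47 CPM in the others. Klk6 had 0 CPM in LP replicate 3, against 1 count in each other LP library.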

How the results depend on the processing

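Klk14, Klk10 and Klk8 kept their direction and an adjusted p under 0.05 in each of the 18, 18 and 19 alternatives in which they could be tested, and Klk11 in 18 of 19. The alternatives use the same libraries or a part of them. Klk14 and Klk10 could pass the filter on low counts only through LP, so these repeats add no separate support. The log2 fold changes ranged over these alternatives from 7.96 to 8.74 for Klk14, 6.90 to 10.79 for Klk10, 1.94 to 2.58 for Klk8 and 2.25 to 3.08 for Klk11. Those of Klk13 and 2310002F09Rik ranged from 7.32 to 9.34 and from 4.61 to 5.14. When at least 10 counts were required in every library, 2 of the 4 genes taken by position were tested and called, since Klk14 and Klk10 have mature libraries at or near 0. With no filter, 1 other kallikrein was called. The number of genes called over the whole table was 3161, and it was 1615 to 3414 with libraries left out, lowest without both libraries numbered 2. With libraries left out, 0 to 1 receptors and substrates and 1 to 3 other serine proteases were called.

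Among list genes that did not pass the threshold, the sign changed for St14 with no filter (0.023), and, with libraries left out, log2 fold changes ranged from -0.16 to 0.10 for St14, -0.072 to 0.145 for Spint2, -1.06 to 0.55 for Cdsn, -1.28 to 0.39 for Fn1, -0.33 to 0.14 for Prss8 and -0.062 to 0.167 for Tmprss13. The cause was not tested. Tmprss4 passed the threshold in 3 alternatives.

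The labels give LP and mature libraries the same replicate numbers but do not say what a number stands for. Deviations of the 4 pairs of same-numbered libraries correlated at 0.062 to 0.148 across genes, with a mean of 0.102. Those of the 12 pairs with different numbers correlated at -0.156 to 0.078, with a mean of -0.034. Mature replicate 2 correlated better with LP replicate 1 (0.078) than with LP replicate 2 (0.062). With a replicate block 3027 genes were called, 2757 of them shared with the 3161, the 4 tested genes taken by position stayed called, and Zfp719 had an adjusted p of 0.0956. Klk12, Klk9 and Klk6, with at most 12 counts in a library, were not called when no filter was used, which does not show that their levels are equal.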
